A study of Mus musculus with 48 samples.

Results

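The expression of 10 adipose macrophage genes was followed in sWAT, the subcutaneous inguinal fat depot of the mouse, over 6 times of day under 2 feeding schedules. The genes were chosen by name, and all 10 were found among the 54532 genes of the count table and passed the filter on low counts with 19977 genes in all. They comprise 3 pan-macrophage genes (Adgre1, Cd68 and Csf1r), 3 genes of resident, perivascular-type macrophages (Mrc1, Lyve1 and Cd163), 3 genes used for lipid-associated macrophages (Trem2, Cd9 and Itgax) and the monocyte receptor gene Ccr2. The study collected sWAT from C57BL/6 mice (C57BL/6J in the study's methods) of 8 months that were fed ad libitum (ad-lib) or only in 2 meals a night (TAN, for twice-a-night feeding). Both diets were sampled every 4 h (8 a.m., noon or 12 p.m., then 4 p.m. and 8 p.m., midnight or 12 a.m., and 4 a.m.), with 4 libraries of poly-A RNA for each diet and time and 48 in all. The labels name no transgene or deletion, and the study describes the mice as males. The libraries were taken as separate mice, as the study counts them, since the labels give only a number within each group.

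Macrophages of adipose tissue fall into populations that differ in position and cargo. Resident macrophages lie along vessels, take up macromolecules through scavenger and mannose receptors and depend on signalling through the CSF1 receptor. Lipid-associated macrophages surround dying adipocytes, clear lipid through the TREM2 receptor and increase in obesity, whereas CCR2 draws monocytes from the blood into the tissue. None of these genes is restricted to 1 cell type. Lyve1 also marks lymphatic endothelium, Itgax (CD11c) marks dendritic cells, Cd9 is made by adipocyte progenitors and many other cells, and the inguinal depot encloses a lymph node.

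The tissue label was checked against marker genes. The series text describes a stromal vascular fraction, the cells left once adipocytes are removed, and the study's methods describe whole sWAT. The adipocyte genes were high, with a mean over the 48 libraries of 3178 CPM (counts scaled to the library size) for Adipoq and 10990 CPM for Fabp4, so that the data go against a fraction without adipocytes. Total counts ranged from 15636378 to 29913310 in the ad-lib libraries and from 15685080 to 25440243 in the TAN libraries. Intervals for single libraries are not given, and the spread between libraries stands for the error. Times are those of the count table. A table of the study lists each of the 48 libraries 12 h apart from these times, which exchanges day and night but leaves the libraries of each comparison together.

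The libraries differed in a second respect that touches several of the 10 genes. The mean log2 CPM of 10 lymphocyte genes (B cell genes such as Ms4a1 and T cell genes such as Cd3e) was between -0.72 and 1.32 in 10 libraries and at least 4.28 in the other 38, up to 7.23. The 10 lymphocyte-poor libraries were TAN libraries 1, 2 and 4 at 4 p.m., TAN library 4 at 8 p.m., TAN libraries 2 and 4 at 12 a.m., ad-lib library 4 at 8 a.m., ad-lib libraries 1 and 3 at 12 p.m. and ad-lib library 3 at 4 a.m. At 8 p.m., TAN libraries 1 and 2 had the lowest mean log2 CPM of 6 adipocyte genes of all libraries, 8.89 and 8.37, against at least 9.76 elsewhere. For the 10 genes, called results that rest on these libraries are also given without them or with their marker genes as a covariate. Values of other genes are not. In bulk tissue, fewer macrophages and less RNA of a gene per macrophage cannot be told apart.

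Levels between genes were compared as CPM per kilobase of the gene length in the count table. Cd9, a tetraspanin, had the highest median over the 48 libraries with 33.5 CPM per kilobase, followed by the lysosomal glycoprotein gene Cd68 with 27.0. Csf1r, the receptor for the growth factors CSF1 and IL-34, had 14.3 and the mannose receptor gene Mrc1 13.6, Adgre1, which encodes the F4/80 antigen, had 9.73, the hyaluronan receptor gene Lyve1 8.92 and the CCL2 receptor gene Ccr2 8.21. The hemoglobin scavenger receptor gene Cd163 had 4.75, the integrin gene Itgax 3.15 and the lipid receptor gene Trem2 0.638 CPM per kilobase. Neighbours in this order overlapped in most cases. Cd9 was above Cd68 in 35, Csf1r above Mrc1 in 33, Adgre1 above Lyve1 in 26, Lyve1 above Ccr2 in 31, Ccr2 above Cd163 in 35 and Cd163 above Itgax in 29 of the 48 libraries, whereas Cd68 was above Csf1r in 47, Mrc1 above Adgre1 in 43 and Itgax above Trem2 in 41.

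On the CPM scale the 48 libraries ranged from 25.9 to 169 for Csf1r, from 7.60 to 89.5 for Cd68 and from 5.98 to 107 for Adgre1. Among the resident genes the range was 7.49 to 241 for Mrc1, 3.96 to 60 for Lyve1 and 0 to 63.6 for Cd163. Among the lipid-associated genes it was 44.5 to 157 for Cd9, 0.816 to 35.1 for Itgax and 0 to 9.25 for Trem2, and for Ccr2 it was 11.1 to 128. Cd9 was thus the steadiest of the 10, with an SD of log2 CPM of 0.40, and Cd163, Itgax and Trem2 varied most, with 1.52, 1.33 and 1.22. Trem2 was counted 0 times in ad-lib library 1 at 8 a.m. and Cd163 0 times in TAN library 2 at 8 p.m., and a count of 0 (which allows up to 3 counts) puts these at under 0.197 and 0.120 CPM. Reads of Csf1r share their interval with 1 gene on the opposite strand, Hmgxb3, and those of Cd9 with Gm28809 and Gm26728, and since the strandedness of the libraries is not stated, reads of such pairs cannot be told apart.

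**Figure D1:**
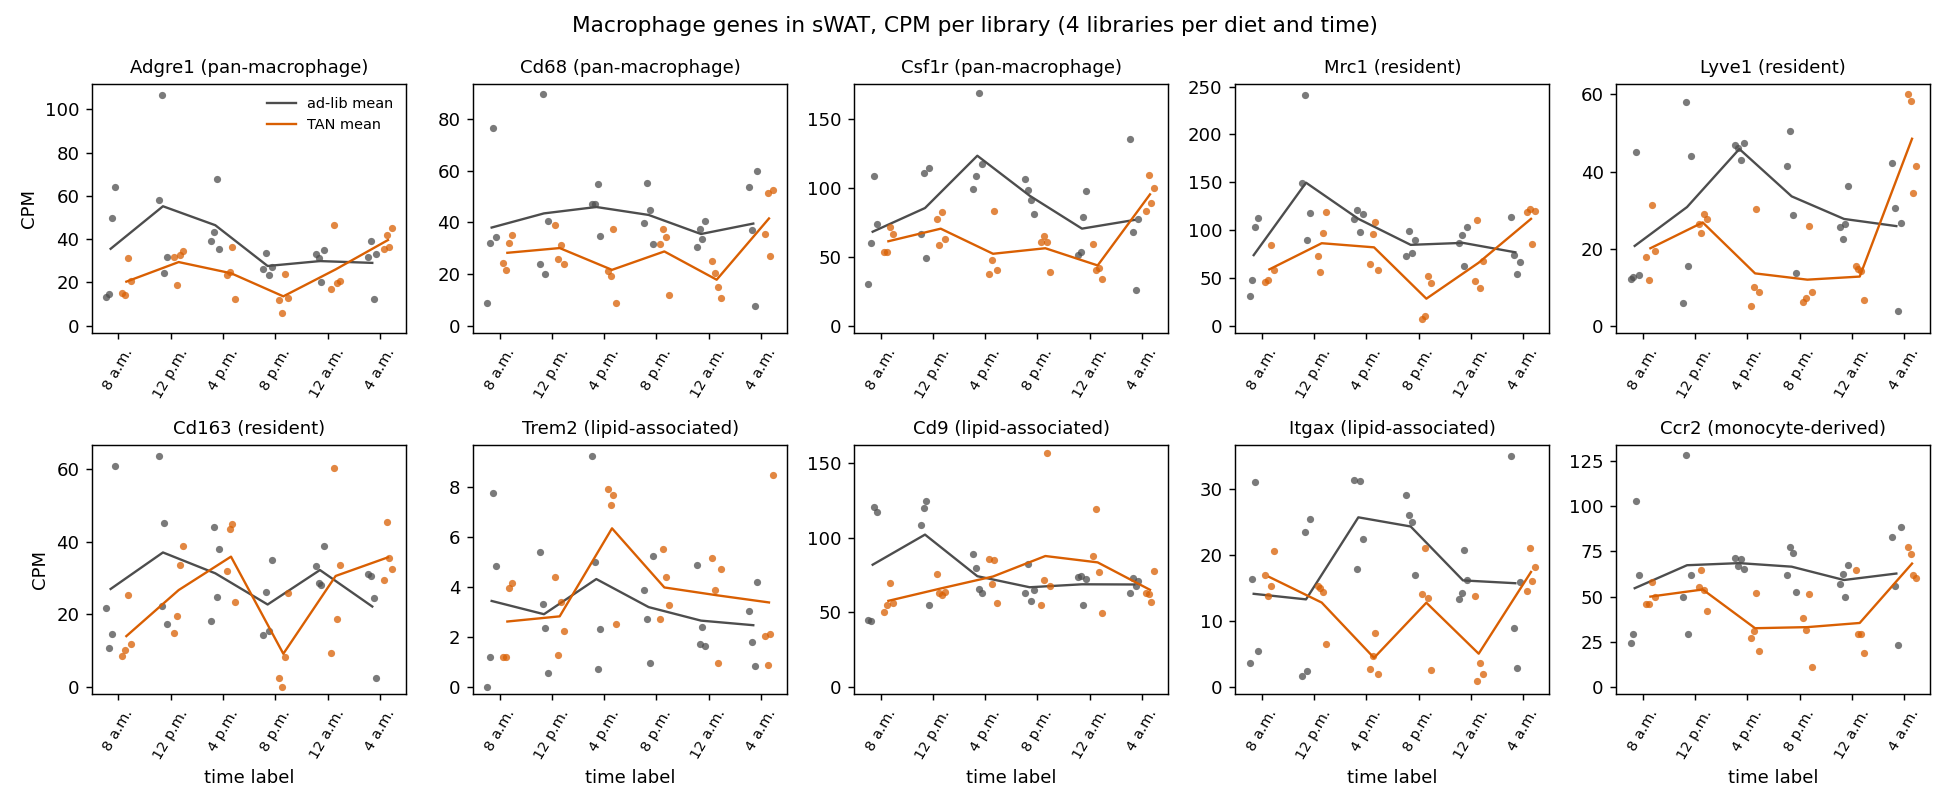
CPM of the 10 genes in each library (points) by time label (x axis) for ad-lib (grey) and TAN (orange), with lines through the means of 4 libraries. At 4 p.m. the TAN libraries of Csf1r, Lyve1, Itgax and Ccr2 all lie below the ad-lib libraries, and at 8 p.m. those of Csf1r, Mrc1 and Ccr2.

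The promoters of 4 genes are shown, 1 resident (Mrc1), 2 lipid-associated (Trem2 and Itgax) and the monocyte receptor gene, to set Mrc1 and Itgax, which were called at different times, beside Trem2 and Ccr2, which edgeR called at none. Sequences are those of RefSeq on GRCm38.p6, which held 7 of the 10 genes in the table used, and run from 100 bases before to 20 bases from the start of transcription, 5′ to 3′ on the strand of the gene. Capitals mark GGAA or its complement TTCC, the core of the site that PU.1 and the other Ets factors bind. PU.1 is the factor on which the macrophage lineage depends.
Mrc1 (chr2:14229314-14229433, + strand): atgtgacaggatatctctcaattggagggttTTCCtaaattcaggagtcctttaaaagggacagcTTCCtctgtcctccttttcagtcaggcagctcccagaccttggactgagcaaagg
Trem2 (chr17:48346301-48346420, + strand): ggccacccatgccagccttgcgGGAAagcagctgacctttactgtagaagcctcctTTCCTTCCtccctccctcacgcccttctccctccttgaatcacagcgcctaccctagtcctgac
Itgax (chr7:128129450-128129569, + strand): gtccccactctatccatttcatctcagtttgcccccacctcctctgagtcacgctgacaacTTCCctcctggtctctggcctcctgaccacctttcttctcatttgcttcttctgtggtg
Ccr2 (chr9:124102083-124102202, + strand): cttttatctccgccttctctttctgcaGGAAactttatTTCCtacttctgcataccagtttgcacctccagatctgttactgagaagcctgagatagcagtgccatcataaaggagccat
The core was found 2 times for Mrc1, 3 times for Trem2, 1 time for Itgax and 2 times for Ccr2. Of 32851 promoter windows of the same 120 bases, 73.7% held at least 1, with a median of 1, so that the core does not set these genes apart. A match is a description of the letters and not of a bound site.

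TAN was compared with ad-lib at each time, to ask whether macrophage genes differed under TAN, with its meal times and lower intake, and when. The main differences were lower levels under TAN at 4 p.m. and 8 p.m. A gene was called where edgeR's quasi-likelihood test gave an adjusted p under 0.05 (Benjamini-Hochberg over all genes tested) and a log2 fold change beyond 1. At 4 p.m. 3 of the 10 genes were called, all lower under TAN, when 7.43% of all genes tested were called lower. The median log2 fold change of the 10 was -1.01, and that of all genes was -0.09. These were the pan-macrophage gene Csf1r, the resident gene Lyve1 and the lipid-associated gene Itgax.

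Csf1r (ENSMUSG00000024621) lies on the plus strand of chromosome 18 from 61105572 to 61132149 in GRCm38, and all values are counts over the whole gene. At 4 p.m. it had 37.5, 48.1, 83.4 and 40.4 CPM in the TAN libraries and 99.1, 109, 169 and 117 CPM in the ad-lib libraries. The highest TAN library stayed below the lowest ad-lib library. The difference was 2.36-fold (log2 fold change -1.24 with a standard error of 0.33, edgeR adjusted p = 0.0159).

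Lyve1 (ENSMUSG00000030787; chromosome 7, 110850607 to 110863239, minus strand) at 4 p.m. had 5.13, 10.2, 30.3 and 8.82 CPM under TAN against 47.0, 46.2, 42.9 and 47.3 CPM under ad-lib. The ad-lib libraries lay close together, TAN library 3 lay between them and the other 3 TAN libraries, and the groups did not overlap. The log2 fold change was -1.75 with a standard error of 0.58 (edgeR adjusted p = 0.0371). This call was the least stable of the 3, since Lyve1 passed in 1 of the 8 fits that left out a library of this time (without TAN library 3) and had an edgeR adjusted p of 0.0628 with no filter on low counts. The mean log2 CPM of the lymphatic endothelial genes moved with Lyve1, at 0.48 to 2.57 in the TAN and 3.47 to 3.67 in the ad-lib libraries. None of these genes was called at 4 p.m. Their log2 fold changes were -2.80 for Prox1, -2.42 for Mmrn1, -1.81 for Reln, -1.36 for Flt4 and, in the other direction, 0.39 for Pdpn (edgeR adjusted p of at least 0.0808). Flt4, a lymphatic growth factor receptor gene, had 2.88 ± 1.64 CPM (SD, n = 4) under TAN and 7.38 ± 1.43 CPM (SD, n = 4) under ad-lib. Their part in the result was not tested.

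Itgax (ENSMUSG00000030789; chromosome 7, 128129547 to 128150657, plus strand) at 4 p.m. had the largest difference of the 10 genes, with 2.75, 4.70, 8.15 and 2.01 CPM under TAN against 31.4, 17.9, 31.3 and 22.4 CPM under ad-lib. The highest TAN library had less than the lowest ad-lib library, with a wide gap between the groups. The log2 fold change was -2.54 with a standard error of 0.75 (edgeR adjusted p = 0.0238).

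Ccr2 also had its 4 TAN libraries, at 27.3, 31.0, 51.7 and 19.8 CPM, below the 4 ad-lib libraries, at 71.5, 66.6, 70.6 and 65.2 CPM, but its log2 fold change of -1.08, with a standard error of 0.41, had an edgeR adjusted p of 0.0637. DESeq2 called it (-1.09, adjusted p = 0.0423), as did 3 of the other alternative fits. It was thus the fourth of the 10 genes without overlap, when 17.8% of all genes tested had every TAN library below every ad-lib library. Cd68 and Adgre1 had log2 fold changes of -1.08 and -0.94 with adjusted p of 0.106 and 0.131 by edgeR and overlapping groups.

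The other genes of the resident and lipid-associated classes did not share these differences at 4 p.m. Mrc1 had 82.0 ± 24.5 CPM (SD, n = 4) under TAN and 112 ± 9.90 CPM (SD, n = 4) under ad-lib, a log2 fold change of -0.45 (standard error 0.41), and Cd163 had 35.9 ± 10.2 and 31.3 ± 11.9 CPM, a log2 fold change of 0.20 (standard error 0.74). Trem2 had 6.36 ± 2.58 CPM (SD, n = 4) under TAN and 4.32 ± 3.74 CPM (SD, n = 4) under ad-lib, a log2 fold change of 0.56 (standard error 0.81), and Cd9 had 74.1 ± 14.2 and 74.3 ± 12.3 CPM, a log2 fold change of -0.0037 (standard error 0.28). The lowest adjusted p of these 4 genes was 0.479 by edgeR's quasi-likelihood test. By the classes set at the start, 1 gene each of the pan-macrophage, resident and lipid-associated genes passed the threshold at 4 p.m. and 2 did not. Lyve1 and Itgax went more closely with genes of other cells than with their class partners, as given below. Differences between genes of a class were not tested.

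The lymphocyte genes moved with the 4 p.m. result. Their mean log2 CPM was -0.72 to 4.44 in the TAN libraries of this time and 6.16 to 6.97 in the ad-lib libraries, their summed level was 7.78 to 274 CPM against 884 to 1550 CPM, and 4 of the 10 were called lower, among them the complement receptor gene Cr2 (-4.98) and the transcription factor gene Pax5 (-4.43) of B cells and the T cell receptor subunit gene Cd3g (-3.74). With the mean of these genes as a covariate, 0 of the 10 macrophage genes were called at 4 p.m., with log2 fold changes of -0.58 for Csf1r, -0.71 for Lyve1, -0.36 for Itgax and -0.22 for Ccr2 and adjusted p by edgeR of at least 0.419. The count at an unadjusted p under 0.05 was then 1, Csf1r. Without the 10 lymphocyte-poor libraries, which leaves 1 TAN library at 4 p.m. that is assumed to vary like the other groups, 0 were called, with log2 fold changes of -1.67 for Itgax, -0.61 for Lyve1, -0.58 for Csf1r and -0.42 for Ccr2 and edgeR adjusted p of 0.161, 0.553, 0.411 and 0.580. With a covariate for adipocyte genes 0 were called, with log2 fold changes of -1.48 for Lyve1, -1.42 for Itgax and -0.90 for Csf1r and edgeR adjusted p of 0.144 to 0.242. Single libraries also decided the count of 3 at 4 p.m., which did not recur in any of the 8 fits that left out 1 library of that time. It was 0 without ad-lib library 3, 0 without TAN library 1, 1 without TAN library 4, 4 without TAN library 3 and 2 without any one of the other 4 libraries.

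At 8 p.m. 1 of the 10 genes was called, lower under TAN, when 5.84% of all genes tested were called lower. The gene was Mrc1 (ENSMUSG00000026712; chromosome 2, 14229392 to 14332057, plus strand), with 7.49, 9.87, 51.6 and 44.4 CPM in the TAN libraries and 72.7, 99.1, 76.4 and 90.2 CPM in the ad-lib libraries. TAN libraries 1 and 2 were far below all others, and libraries 3 and 4 lay between them and the ad-lib libraries. The difference was 2.99-fold (log2 fold change -1.58 with a standard error of 0.42, edgeR adjusted p = 0.0156).

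Cd163 at 8 p.m. had 2.38, 0, 8.33 and 25.8 CPM under TAN and 14.3, 26.1, 15.5 and 35.0 CPM under ad-lib, so that library 4 alone reached the ad-lib range. Its fitted log2 fold change of -1.32, with a standard error of 0.76, had an edgeR adjusted p of 0.260. Lyve1 had 6.18, 7.18, 25.8 and 8.73 CPM under TAN and 41.4, 50.5, 28.8 and 13.7 CPM under ad-lib, a log2 fold change of -1.49 with its standard error of 0.57 (edgeR adjusted p = 0.0784). The 3 resident genes thus had log2 fold changes between -1.58 and -1.32 at this time, of which 1 passed the test.

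Without overlap at 8 p.m. were Mrc1, Csf1r and Ccr2, 3 of the 10, against 11.6% of all genes tested. Csf1r and Ccr2 had log2 fold changes of -0.75 and -1.01 with adjusted p of 0.125 and 0.0958 by edgeR, and Adgre1 had -1.02 (edgeR adjusted p = 0.119). The lipid-associated genes had log2 fold changes of 0.32 for Trem2, 0.39 for Cd9 and -0.93 for Itgax, each with an adjusted p of at least 0.388 by edgeR.

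The 8 p.m. difference of Mrc1 moved with other values than that of 4 p.m. With the lymphocyte covariate Mrc1 had a log2 fold change of -1.66 (edgeR adjusted p = 0.00594), and Cd163 was then called as well (-2.12, adjusted p = 0.0157). With the covariate for adipocyte genes 3 of the 10 genes were called. These were Mrc1 (-1.8, edgeR adjusted p = 0.00198), Cd163 (-2.17, adjusted p = 0.00499) and Ccr2 (-1.05, adjusted p = 0.0424). Without TAN libraries 1 and 2, the 2 with the lowest adipocyte genes, Mrc1 had -0.82 (edgeR adjusted p = 0.180) and Cd163 -0.42, and 0 of the 10 genes were called. The count was 0 without TAN library 1 or TAN library 2 alone, and 2 without TAN library 3 or TAN library 4. The lymphatic endothelial genes moved with it too, at -1.74 to 2.71 in TAN and 2.86 to 3.93 in ad-lib libraries (mean log2 CPM of 5 genes), and the part of these values in the result was not tested.

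**Figure D2:**
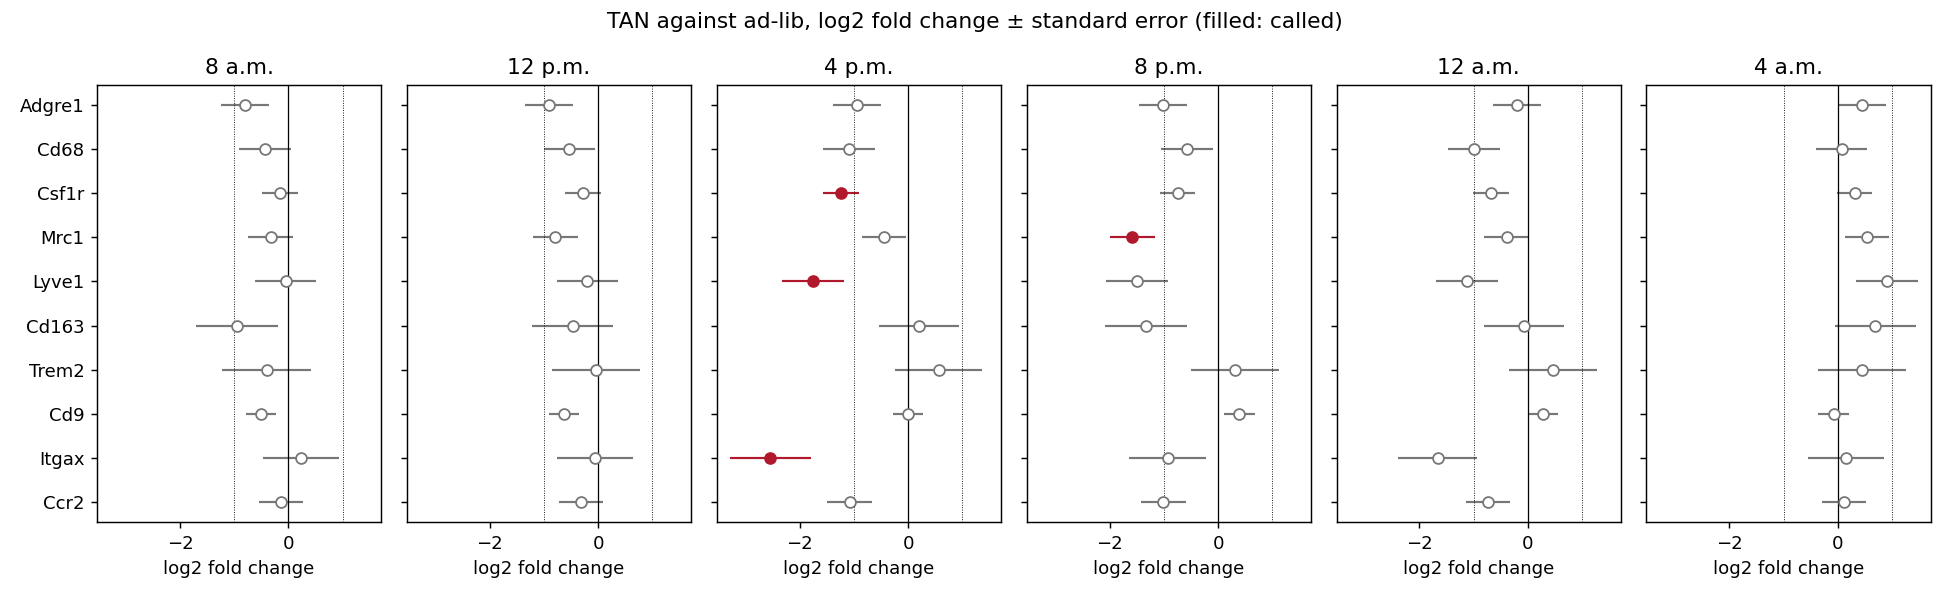
Log2 fold change of TAN against ad-lib (x axis) for each gene at each time, with its standard error as a bar, filled red where called and open where not. Filled points are those of Csf1r, Lyve1 and Itgax at 4 p.m. and Mrc1 at 8 p.m., and 9 of the 10 genes lie right of 0 at 4 a.m.

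At the other 4 times no gene of the 10 was called by edgeR, and DESeq2 and limma voom also called 0. At 8 a.m. the shares called among all genes were 0.015% in either direction, and the 10 genes had log2 fold changes from -0.95 (Cd163) to 0.23 (Itgax), with 0 at an unadjusted p under 0.05. At 12 p.m. 0.0901% of all genes were called, all 10 genes had negative values from -0.91 (Adgre1) to -0.04 (Trem2), and 2 had an unadjusted p under 0.05, Adgre1 and Cd9. At 12 a.m. 0.135% of all genes were called, and 3 of the 10 had an unadjusted p under 0.05, Itgax (-1.67), Cd68 (-0.99) and Csf1r (-0.69). Cd68 at 12 a.m. had 25.1, 20.4, 15.1 and 10.7 CPM under TAN and 30.5, 37.2, 33.7 and 40.5 CPM under ad-lib. It and Lyve1 were without overlap, 2 of the 10 against 5.54% of all genes tested. Without TAN library 1 at 12 a.m., 1 gene, Itgax, was called, in a fit that kept the lymphocyte-poor TAN libraries 2 and 4. With the lymphocyte covariate the log2 fold changes at 12 a.m. were -0.875 for Itgax, -0.254 for Cd68, -0.244 for Csf1r and -0.264 for Lyve1. The edgeR adjusted p of these 4 genes was then at least 0.34.

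At 4 a.m. the direction was the other way, though nothing passed. The share called was 0% of all genes, and 9 of the 10 genes had positive log2 fold changes with a median of 0.38, against 0.0036 for all genes, and 0 had an unadjusted p under 0.05. Lyve1 had 60, 58.2, 34.5 and 41.3 CPM under TAN and 42.3, 30.4, 3.96 and 26.7 CPM under ad-lib, and Mrc1 had 119, 123, 85.9 and 120 CPM under TAN and 113, 73.6, 53.6 and 66.6 CPM under ad-lib. The TAN libraries were high within the ad-lib range and above it, and ad-lib library 3, the lowest for both genes, was 1 of the 10 lymphocyte-poor libraries.

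Taken over the 6 times, 1 of the 10 genes was called for the mean TAN effect, Csf1r with -0.47 on the log2 scale (standard error 0.13, edgeR adjusted p = 0.0351), when 2.74% of all genes tested were called lower. The mean TAN effect had an unadjusted p under 0.05 for 7 of the 10 genes, all negative, with adjusted p by edgeR of 0.0508 for Adgre1 (-0.57), 0.0526 for Ccr2 (-0.53), 0.0617 for Cd68 (-0.59), 0.0680 for Mrc1 (-0.50), 0.0909 for Itgax (-0.80) and 0.102 for Lyve1 (-0.62). Cd163 (-0.32), Cd9 (-0.09) and Trem2 (0.23) had an adjusted p of at least 0.576 by edgeR. The 3 pan-macrophage genes and Ccr2 were thus between -0.59 and -0.47, and the edgeR adjusted p of these 4 spanned 0.0351 to 0.0617. The median mean effect was -0.51 for the 10 genes and -0.08 for all genes. Shares of all genes at an unadjusted p under 0.05, or called by DESeq2, limma voom or any other alternative fit, are not given for any comparison. Counts of the 10 genes of these kinds therefore stand without a base rate. The gene called changed with the tool, as limma voom gave Csf1r -0.40 (adjusted p = 0.0860) and called Mrc1 instead (-0.57, adjusted p = 0.0368). DESeq2 called 6 of the 10 for this effect, with log2 values for the 10 between -0.81 and 0.23, and the lymphocyte covariate left 2, Csf1r (-0.36) and Ccr2 (-0.42). The count ran from 0 to 5 as each library was left out in turn, and was 0 without any one of 12 libraries: ad-lib library 3 of 8 a.m., ad-lib libraries 2 and 4 and TAN libraries 2 and 4 of 12 p.m., ad-lib library 3 and TAN library 1 of 4 p.m., TAN library 4 of 8 p.m., ad-lib library 4 and TAN libraries 3 and 4 of 12 a.m. and ad-lib library 1 of 4 a.m. It was 5 without ad-lib library 1 of 8 a.m., ad-lib library 1 of 12 p.m., TAN library 3 of 4 p.m., TAN library 3 of 8 p.m. or ad-lib library 3 of 4 a.m. Csf1r was called in 36 of these 48 fits.

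Whether the TAN effect differed between times was tested by an F test over the 6 times, which called 0 of the 10 genes by edgeR, when 8.98% of all genes were called. The unadjusted p was under 0.05 for 3 genes, Lyve1 (0.0168), Mrc1 (0.0305) and Csf1r (0.0330), with adjusted p from 0.0941 to 0.134 by edgeR. DESeq2 called 1 gene and limma voom 5, so that the tools did not give the same answer here. The test takes the 6 times together, and the effects at 4 p.m. or 8 p.m. were not tested against that at 4 a.m. alone.

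The course over the day was then tested within each diet. In ad-lib sWAT 0 of the 10 genes varied over the 6 times by edgeR, DESeq2 or limma voom, when edgeR called 0.0551% of all genes, and 0 had an unadjusted p under 0.05. A 24-h harmonic, a cosine fitted to the 6 times, was called for 0 of the 10 genes and 0.0801% of all genes in ad-lib, with 2 at an unadjusted p under 0.05 (Adgre1 and Csf1r). In TAN sWAT 2 of the 10 genes varied over time, Mrc1 (edgeR adjusted p = 0.0166) and Lyve1 (edgeR adjusted p = 0.0250), against 23% of all genes. The harmonic in TAN was called for 1 gene, Lyve1 (edgeR adjusted p = 0.0454), against 19.8% of all genes. With 10 genes, these counts do not set them apart from all genes.

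The group means show this course. Mrc1 in TAN had its lowest mean at 8 p.m. with 28.3 ± 22.9 CPM (SD, n = 4) and its highest at 4 a.m. with 112 ± 17.3 CPM, a ratio of 3.95, and Lyve1 went from 12.0 ± 9.26 CPM at 8 p.m. to 48.5 ± 12.6 CPM at 4 a.m., a ratio of 4.06. The amplitude of Lyve1 was 0.77 on the log2 scale with a fitted peak at hour 6.88 by the count table's times (18.9 by those 12 h apart). With the lymphocyte covariate the harmonic of Lyve1 had an edgeR adjusted p of 0.338, and its variation over time one of 0.0417. The count of harmonics called in TAN was also 0 without any single TAN library of 12 p.m., among others. For 8 of the 10 genes in TAN the fitted peak fell between hours 6.40 and 7.87, and for Trem2 and Cd9 at hours 18.6 and 20.6, although no harmonic of these 9 genes passed the test. Mrc1 and Lyve1 were not called for variation over time without TAN libraries 1 and 2 at 8 p.m., when 0 of the 10 were (edgeR adjusted p = 0.0941 and 0.0543), and the 1 harmonic then called was that of Cd9 (edgeR adjusted p = 0.0367) in place of Lyve1 (edgeR adjusted p = 0.190).

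The 10 genes were correlated over the 48 libraries to see which classes held together. Points share the library and its depth, so that these values are descriptions. Mrc1 and Adgre1 (r = 0.85, Pearson, log2 CPM) and Mrc1 and Cd163 (0.75) went together, and so did Csf1r and Cd68 (0.87), Cd68 and Ccr2 (0.87) and Csf1r and Lyve1 (0.81). Lyve1 was closer to Csf1r than to Mrc1 (0.58) or Cd163 (0.22), its partners in the resident class. The lipid-associated genes did not form a class in these libraries, since Itgax had r = 0.01 with Trem2 and -0.18 with Cd9, while Trem2 and Cd9 had 0.50. Itgax went with Csf1r (0.79), Cd68 (0.79) and Ccr2 (0.76).

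**Figure D3:**
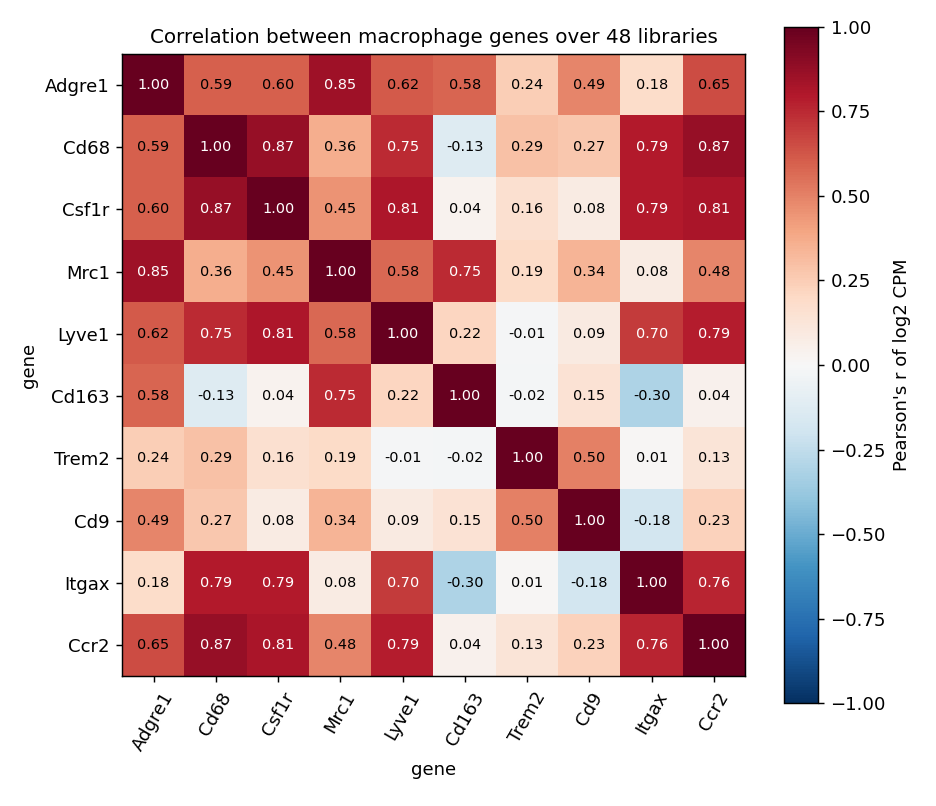
Pearson's r of log2 CPM between each pair of the 10 genes over the 48 libraries, printed in each cell and coloured from blue (-1) to red (1). Cd68, Csf1r, Lyve1, Itgax and Ccr2 form a block with r between 0.70 and 0.87, and Itgax and Cd163 have the lowest value, -0.31.

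For each gene the genes of highest r among all tested, at most 3, are given. Mrc1 was nearest to Abca9 (0.96), a lipid transporter gene, then Dab2 (0.92), an endocytic adaptor gene. Adgre1 was nearest to Mrc1 itself (0.85), Abca9 (0.83) and the mast cell protease gene Cpa3 (0.81), and Cd163 to Ccdc152 (0.92), Ebf2 (0.91) and C5ar1 (0.91). Lyve1 was nearest to the scavenger receptor gene Msr1 (0.91), the coagulation factor gene F8 (0.90) and Spock3 (0.88). Cd68 was nearest to Lmo2 (0.91), Cfp (0.90) and Unc93b1 (0.90), Csf1r to Cd33 (0.88), Pirb (0.88) and Cd68, and Ccr2 to Fcgr2b (0.91), Rgs18 (0.90) and Cd33 (0.90). Trem2 was nearest to Atp6v0d2 (0.81), a subunit gene of the lysosomal proton pump, C3ar1 (0.74) and the lysosomal acid lipase gene Lipa (0.69), and Cd9 to Rab31 (0.83), the ceramidase gene Asah1 (0.78) and Mgp (0.77). Itgax was nearest to Slamf7 (0.96), Nckap1l (0.95) and Lrmp (0.95).

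Against the lymphocyte genes of the same library, the 10 genes spread widely. Itgax followed them most closely (r = 0.90), with a median of 2.45 CPM in the 10 lymphocyte-poor libraries and 16.3 CPM in the other 38, a ratio of 6.66. Cd68 (0.68), Ccr2 (0.66), Lyve1 (0.64) and Csf1r (0.63) followed less closely, with medians 1.86, 2.16, 3.30 and 1.99 times higher in the 38 libraries. Adgre1 (0.05), Mrc1 (-0.11), Trem2 (-0.14), Cd9 (-0.27) and Cd163 (-0.41) had values near or below 0. Cd163 had a median of 38.6 CPM in the 10 and 23.5 CPM in the 38 libraries, and over the 48 libraries it went with the adipocyte genes (r = 0.71), with which Itgax had r = -0.69.

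**Figure D4:**
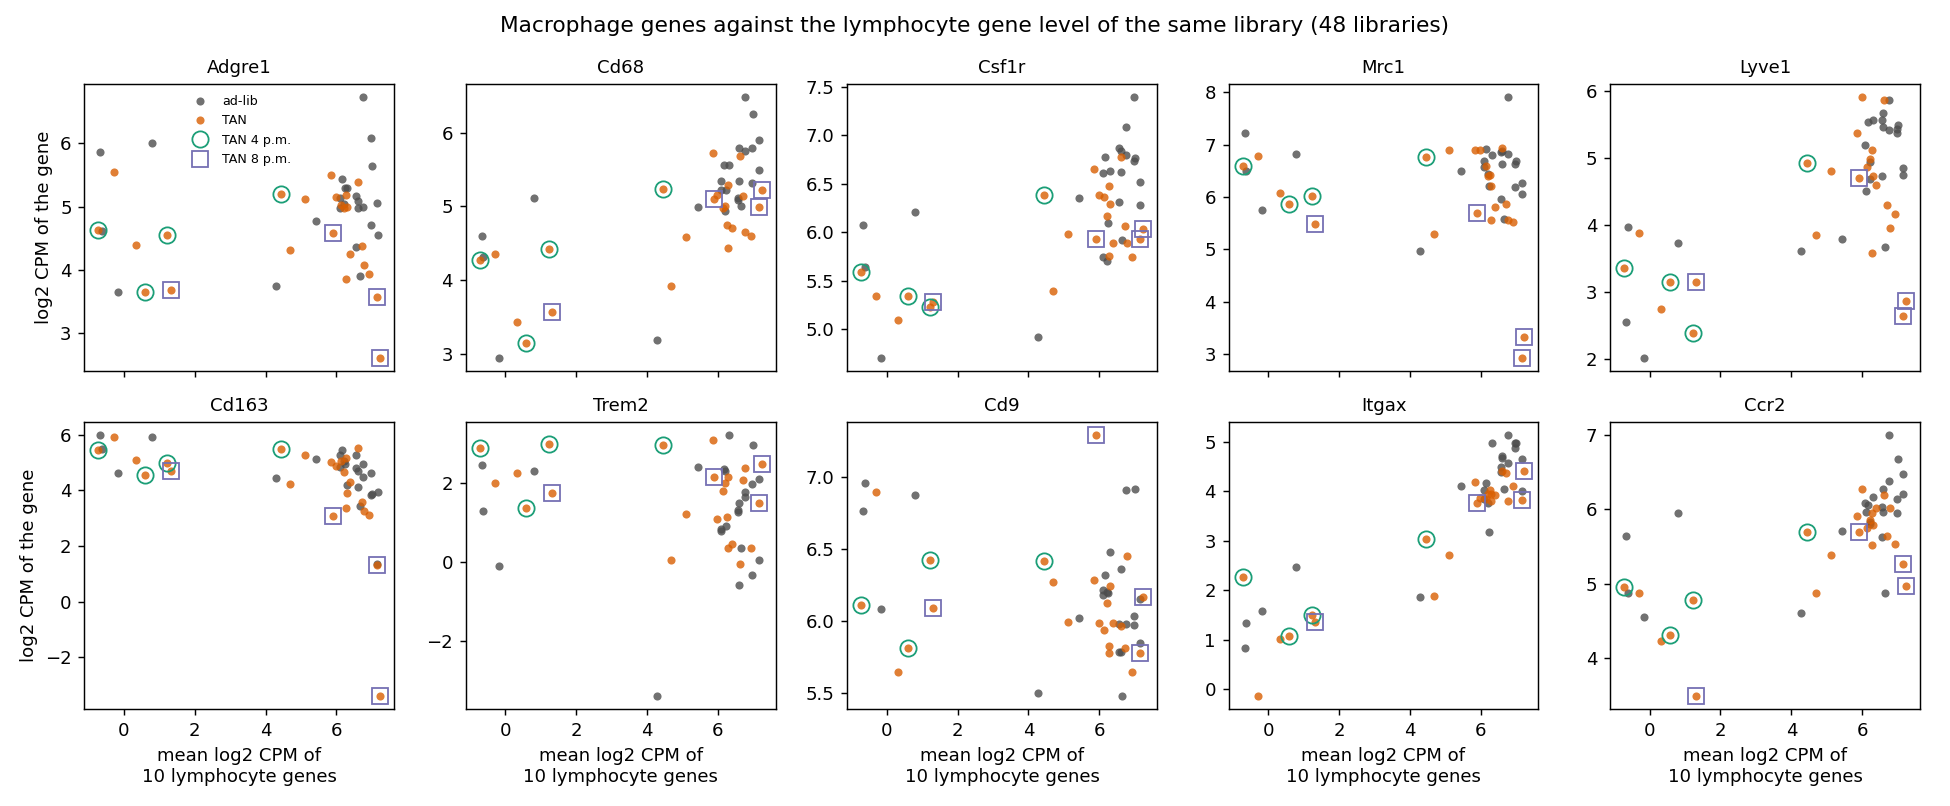
Log2 CPM of each gene (y axis) against the mean log2 CPM of 10 lymphocyte genes of the same library (x axis), with TAN libraries of 4 p.m. circled and those of 8 p.m. in squares. For Itgax the 10 libraries on the left lie at 0.816 to 5.42 CPM, and 3 of the 4 circled libraries are among them, whereas the lowest points of Mrc1 and Cd163 are 2 squares at the right.

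The values of r with the lymphocyte genes within groups, after each diet and time was centred, were 0.89 for Itgax, 0.68 for Cd68, 0.68 for Ccr2, 0.64 for Lyve1 and 0.66 for Csf1r, so that the relation was as strong among libraries of 1 diet and time. Lyve1 was closest to the lymphatic endothelial genes (Prox1, Flt4, Mmrn1, Reln and Pdpn), with r = 0.87 over the 48 libraries and 0.83 within groups. Adgre1 and Mrc1 went with 10 further resident macrophage genes such as Folr2 and F13a1 (0.87 and 0.89), and Trem2 and Cd9 with 10 further lipid-associated genes such as Gpnmb and Lipa (0.73 and 0.69, where Lipa is also among the genes nearest to Trem2), a list with which Itgax had r = -0.27. Itgax went with 8 dendritic cell genes such as Flt3 and Xcr1 (0.92).

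The resident and the lipid-associated genes were set against each other in each library, as the mean log2 CPM of Mrc1, Lyve1 and Cd163 minus that of Trem2, Cd9 and Itgax. This index is a description without a test. Over the 48 libraries it had r = 0.58 with the further resident genes and 0.02 with the further lipid-associated genes. It had r = 0.73 with blood endothelial, 0.62 with adipocyte and 0.55 with progenitor genes, and -0.34 with dendritic cell and -0.31 with lymphocyte genes. The part of other cells in the index was not tested. The index was between 0.89 and 2.01 as a mean of every group but TAN at 8 p.m., where it was -0.85 ± 2.06 (SD, n = 4) against 1.2 ± 0.34 (SD, n = 4) in ad-lib. The TAN libraries of that time ran from -3.43 to 1.37. The difference of -2.05 exceeded the pooled SD within groups of 0.87, but without TAN libraries 1 and 2 it was -0.48. At the other times TAN minus ad-lib was within the pooled SD, from 8 a.m. (-0.60) over 12 p.m. (-0.41), 4 p.m. (-0.19) and 12 a.m. (-0.08) to 4 a.m. (0.77). At 4 p.m. Lyve1 and Itgax, which stand on opposite sides of the index, were both lower, and without Itgax the difference was -1.23. Without Itgax that of 12 a.m. was -0.97, which exceeds the pooled SD given above. With 1 library left out the difference at 8 a.m. ran from -0.094 (without ad-lib library 1) to -0.966 (without ad-lib library 3), and at 4 a.m. from 0.342 (without ad-lib library 4) to 1.02 (without TAN library 4).

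**Figure D5:**
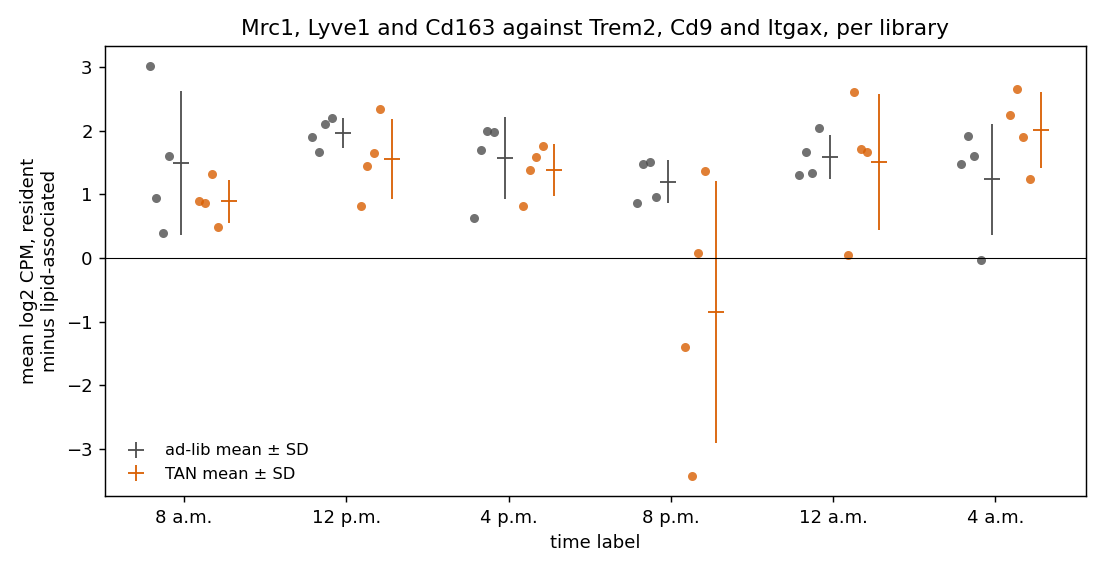
Mean log2 CPM of Mrc1, Lyve1 and Cd163 minus that of Trem2, Cd9 and Itgax (y axis) in each library by time label, with the mean and SD of 4 libraries beside the points. The 2 lowest TAN libraries of 8 p.m. stand below all others.

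Other genes of these populations were taken from lists of textbook markers, whose counts stand against 7.43% of all genes called lower and 2.93% called higher at 4 p.m., 5.84% called lower at 8 p.m. and 0.135% called at 12 a.m., and 2.74% called lower and 2.68% higher in the mean effect. Of 10 further resident genes, 0 were called at any time and the median log2 fold change was 0.30 at 4 p.m. and -0.49 at 8 p.m. The 2 most abundant, the growth arrest gene Gas6 and the phosphatidylserine receptor gene Timd4, had log2 fold changes at 4 p.m. of 0.03 and -3.16 (edgeR adjusted p = 0.0701). The lymph node macrophage gene Cd209b had -2.975 at 4 p.m. (edgeR adjusted p = 0.0574). In the ad-lib libraries of 12 p.m. Timd4 ran from 2.62 to 480 CPM and Cd209b from 12.6 to 1299 CPM. The cells that Timd4 came from were not tested. Of 10 further lipid-associated genes, 1 was called, higher under TAN at 4 p.m. and 12 a.m. and in the mean effect. This was the fatty acid binding protein gene Fabp5, which had 319 ± 73.1 CPM (SD, n = 4) under TAN and 115 ± 20.3 CPM (SD, n = 4) under ad-lib at 4 p.m. (log2 fold change 1.47 with a standard error of 0.32, edgeR adjusted p = 0.00818). Fabp5 is also made by adipocytes, whose Fabp4 was called higher at 4 p.m. (1.44).

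Of 14 genes of the CSF1R, TREM2 and CCR2 pathways, 2 were called at 4 p.m., both lower under TAN, and 1 at 12 a.m. Syk, a kinase downstream of the TREM2 adaptor among other receptors, had 9.78 ± 2.50 CPM (SD, n = 4) under TAN and 86.7 ± 25.8 CPM (SD, n = 4) under ad-lib at 4 p.m. (log2 fold change -3.15, edgeR adjusted p = 0.0135). The adaptor gene Tyrobp had -0.76 (edgeR adjusted p = 0.367) and Trem2 itself 0.56 at this time. Irf8, a transcription factor gene of monocytes and dendritic cells that B cells also use, had -2.53 (edgeR adjusted p = 0.0297). TAN libraries 1, 2 and 4 of 4 p.m. were lymphocyte-poor, and the part of lymphocyte RNA in the values of Syk and Irf8 was not tested. Csf1, the ligand gene of CSF1R, had 18.4 ± 2.61 CPM (SD, n = 4) under TAN and 38.1 ± 12.0 CPM (SD, n = 4) under ad-lib at 12 a.m. (log2 fold change -1.05, edgeR adjusted p = 0.0371), at a time when the receptor gene had -0.69.

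Of 12 further myeloid genes, 2 were called lower at 4 p.m., the NADPH oxidase gene Cybb (-2.40) and the perforin-2 gene Mpeg1 (-2.43), and Cybb was also called in the mean effect (-0.81, edgeR adjusted p = 0.0402). Of 4 monocyte genes, 2 were called lower at 4 p.m., Ly6c2 (-2.90) and the fractalkine receptor gene Cx3cr1 (-3.05). Of 8 dendritic cell genes, 4 were called lower at 4 p.m., Flt3 (-3.62), Xcr1 (-3.29), Siglech (-3.34) and Batf3 (-2.34). The 4 p.m. values of all these lists include the lymphocyte-poor TAN libraries 1, 2 and 4. No fit of the lists with the lymphocyte covariate or without those libraries is given. With that covariate 0 of the 10 macrophage genes were called at 4 p.m. Of 4 lymph node macrophage genes, Siglec1, the sialic acid receptor gene of subcapsular macrophages, was called lower at 4 p.m. (-2.10) and 8 p.m. (-1.93). In the lists of other cells, 1 of 5 lymph node stroma genes (Cxcl13, -2.86), 2 of 5 neutrophil genes tested (Retnlg and Mpo, both under 1 CPM on average) and 1 of 3 mammary epithelial genes tested (Epcam, -4.97) were called lower at 4 p.m., and 1 of 5 lymphatic endothelial genes (Flt4, -2.78), 2 of 5 blood endothelial genes (Cdh5, -1.23, and Kdr, -1.20) and 1 of 5 progenitor genes (Pdgfra, -1.07) at 8 p.m., while 0 of 6 skeletal muscle and 0 of 3 erythrocyte genes were called at either time.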

How the data were processed

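The authors deposited whole-number read counts per gene for 48 libraries, made from poly-A RNA with random-hexamer priming and paired-end sequencing, and these counts were analysed. Gene coordinates are on GRCm38. The submitters' processing notes name TopHat 1.3.3 and DESeq2 1.20.0 among other tools. The study's methods name limma and edgeR for comparing TAN with ad-lib at each time and DESeq2 for pairs of conditions, and the program that counted reads and its use of strand are not given in the sources used here. A second deposited table of authors' group means in FPKM was not used. Counts were fitted with edgeR 4.0.16 in R 4.3.3 (TMM scaling, filterByExpr with a minimum count of 10, robust quasi-likelihood test, 1 model of 12 groups), with Benjamini-Hochberg adjustment over all 19977 genes tested. The threshold was an adjusted p of 0.05, with a log2 fold change of more than 1 in size also required at single times. All 10 genes are reported, together with the listed marker genes called, except 1, and the 2 most abundant further resident genes. Tyrobp, Cd209b and the lymphatic endothelial genes are given beside them at 4 p.m., though not called. Members and lists were chosen with earlier results of these data known. Total counts ranged from 15636378 to 29913310, and none of the 1128 pairs of libraries was identical. Replicates are numbered libraries of 1 group, so that p-values measure the spread between these libraries. Means ± SD and correlations use CPM (counts scaled to the library size) on TMM-scaled library sizes, the latter on the log2 scale. The code was tested on simulated data. Alternatives were DESeq2 1.42.0, limma voom 3.58.1, RLE scaling, other filters, separate fits, marker covariates, a replicate block and leaving out each library, and those for adipocyte genes, for the lymphocyte-poor or adipocyte-poor libraries and for the index without Itgax were chosen after seeing the data. Among the genes nearest to Mrc1, 1 is not reported here.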

Additional observations from a re-analysis of the deposited data

Results flagged for a closer look

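In groups of 4 libraries, 1 library stood apart from the other 3 by Dixon's test in 11 of the 120 combinations of gene, diet and time, where chance gives about 1 in 20. The values are in CPM. Adgre1 was 46.8 in TAN library 2 at 12 a.m. (others 16.8 to 20.9), and Mrc1 was 85.9 in TAN library 3 at 4 a.m. (others 119 to 123). Lyve1 was 45.0 in ad-lib library 3 at 8 a.m. (others 12.1 to 13.1), 25.8 in TAN library 3 at 8 p.m. (others 6.18 to 8.73) and 6.64 in TAN library 4 at 12 a.m. (others 14.3 to 15.5). Trem2 was 2.51 in TAN library 4 at 4 p.m. (others 7.29 to 7.94) and 8.48 in TAN library 4 at 4 a.m. (others 0.879 to 2.12). Cd9 was 75.8 in TAN library 1 at 12 p.m. (others 61.3 to 63.7), 157 in TAN library 3 at 8 p.m. (others 54.7 to 71.7) and 55.1 in ad-lib library 3 at 12 a.m. (others 72.5 to 74.4). Itgax was 6.45 in TAN library 4 at 12 p.m. (others 14.3 to 15.4). Of these, TAN library 4 at 4 p.m. and TAN libraries 2 and 4 at 12 a.m. were among the lymphocyte-poor libraries.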

How the results depend on the processing

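Counts are of the 10 genes called, and the cause of each change was not tested. The share of all genes called in each alternative fit is not given. Changes of these counts therefore stand without a base rate and are not results about the 10 genes alone. At 4 p.m. the count of 3 became 0 with the lymphocyte covariate, 0 with the adipocyte covariate, 0 without the 10 lymphocyte-poor libraries, 6 with a separate fit per time and 5 at an unadjusted p. At 8 p.m. the count of 1 became 2 with DESeq2, 3 with limma voom, 2 with the lymphocyte covariate, 3 with the adipocyte covariate, 3 without the lymphocyte-poor libraries, 0 without the 2 adipocyte-poor TAN libraries, 0 with a separate fit and 4 at an unadjusted p. At 12 a.m. it went from 0 to 1 at an unadjusted p. For these times an unadjusted p stands here for an edgeR p under 0.05 with a log2 fold change beyond 1. For the mean effect the count of 1 became 4 with at least 10 counts in every library, 2 with RLE scaling, 6 with DESeq2, 2 with the lymphocyte, 4 with the muscle and 3 with the adipocyte covariate, 5 without the lymphocyte-poor libraries and 4 without the adipocyte-poor ones. The effect differing between times went from 0 to 1 with DESeq2 and 5 with limma voom. Variation over time in TAN went from 2 to 4 with the muscle covariate and 0 without the adipocyte-poor libraries. The harmonic in TAN went from 1 to 0 with no filter, 0 with RLE scaling, 3 with limma voom, 0 with the lymphocyte and 2 with the muscle covariate. The index difference was -1.23 at 4 p.m. and -0.966 at 12 a.m. without Itgax, and -0.477 at 8 p.m. without the adipocyte-poor libraries.

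The sign turned for Cd163 at 4 p.m. with the lymphocyte (-1.03) and the adipocyte covariate (-1.08), for Cd9 at 4 p.m. with the muscle covariate (0.00479) and without the lymphocyte-poor libraries (0.188), and for the mean effect of Cd9 without the latter (0.0346). None of these values was called. With each library left out in turn, counts ran from 0 to 0 at 8 a.m., 12 p.m. and 4 a.m., 0 to 4 at 4 p.m., 0 to 2 at 8 p.m., 0 to 1 at 12 a.m., 0 to 5 for the mean effect, 0 to 1 for the effect differing between times, 1 to 4 for variation and 0 to 3 for the harmonic in TAN, and 0 to 0 for both in ad-lib. Cd9 then ran from -0.0778 to 0.114 at 4 p.m. and from -0.0479 to 0.564 at 8 p.m. The index difference ran from -0.966 to -0.094 at 8 a.m., -0.668 to -0.159 at 12 p.m., -0.503 to 0.00176 at 4 p.m., -2.78 to -1.19 at 8 p.m., -0.45 to 0.407 at 12 a.m. and 0.342 to 1.02 at 4 a.m. Csf1r at 4 p.m. was called in 6 of 8 such fits, Itgax in 5 of 8, Lyve1 in 1 of 8, Ccr2 in 1 of 8 and Mrc1 at 8 p.m. in 6 of 8.

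Libraries with the same replicate number did not deviate together (median r = 0.0348, over 0.1 in 5 of 24 pairs), so that the number was not taken as a pairing. With it as a replicate block the counts were 3 at 4 p.m., 1 at 8 p.m., 1 for the mean effect, 2 for variation and 1 for the harmonic in TAN, and 47 of 47 results kept their direction and side of the threshold.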
